A study of Mus musculus with 12 samples.

Results

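The Ly6 family members followed here were 7 genes found by symbol among the 32285 genes of the count files: Ly6g6c, Ly6d, Ly6a, Ly6e, Lypd3, Lypd5 and Slurp1. Ly6/uPAR proteins share a small, disulfide-bonded LU domain with a finger-like fold. Most are held at the outer face of the plasma membrane by a glycosylphosphatidylinositol (GPI) anchor, while the SLURP proteins are secreted and act on nicotinic acetylcholine receptors. In skin, several members mark the change from dividing basal keratinocytes to the cells above them, and loss of human SLURP1 causes a thickening of palm and sole skin.

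Wild type C57BL/6J mice ate a regular diet (RD, 11% fat) or a high-fat diet (HFD, 42% fat) for 10 weeks from an age of 6 to 8 weeks, and were studied at 16 to 18 weeks. The study used the diet as a model of painful diabetic neuropathy and asked how epidermal cells of the paw respond to it. Epidermis from the glabrous skin of the hind paw was separated, dissociated and profiled by single-cell RNA-seq, with 1 library per mouse and 3 libraries for each diet in each sex. Between 134449247 and 194673581 unique molecular identifiers (UMIs, each a counted transcript molecule) were recorded per library, and 6226 to 15193 cells per library passed the filters. Cell barcodes shared by a pair of libraries came to at most 0.564% of the smaller library.

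Cells were clustered again within each sex with the 7 members left out of the genes used for clustering, and classes were named from marker genes. Levels below are UMIs of a gene per 1000000 UMIs (CPM) in the summed cells of a class in a library. They therefore depend on both the number of transcripts per cell and the share of cells that carry them, and fewer cells of a kind within a class cannot be told apart from less RNA per cell. Keratinocytes fell into basal-like, proliferating-like, migratory-like (marked by Krt79) and terminally differentiated-like cells (led by the Lce1 genes), and into suprabasal-like clusters that are called by a leading gene, Il34, Serpinb12 or Dnase1l3. The suprabasal markers did not separate these clusters cleanly in males, where the Dnase1l3 cluster also carried a terminal marker among its leading genes, so each was kept apart. A further male suprabasal-like cluster of 1444 cells had none of these 3 genes among its leading genes. It counts among all keratinocytes but was left out of the comparison of stages and of the diet tests by cluster, and it had Ly6g6c at 1216 ± 124 CPM (n = 6). Krt9, the keratin of palm and sole skin, was among the leading genes of the female Il34 cluster. Langerhans cell-like (LC-like) cells had Cd207, which encodes langerin, at 4357 CPM in males and 4788 CPM in females when they held few keratin transcripts, and T cell-like cells had Cd207 at 0 and Cd3e, a subunit of the T cell receptor complex, at 547 CPM in males and 356 CPM in females.

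The members lie in groups on GRCm38. Slurp1 (ENSMUSG00000022596, chr15:74724318-74728034, minus strand), Ly6d (ENSMUSG00000034634, chr15:74762056-74763620, minus), Ly6e (ENSMUSG00000022587, chr15:74955051-74959905, plus) and Ly6a (ENSMUSG00000075602, chr15:74994877-74998031, minus) are neighbours on chromosome 15. Lypd5 (ENSMUSG00000030484, chr7:24349196-24355109, plus) and Lypd3 (ENSMUSG00000057454, chr7:24636550-24641118, plus) are on chromosome 7, and Ly6g6c (ENSMUSG00000092586, chr17:35065388-35070050, plus) is on chromosome 17 in the major histocompatibility complex. All 7 are protein coding. On the opposite strand Ly6g6c overlaps Mpig6b, Slurp1 overlaps Them6 and Lypd3 overlaps Gm26550. Ly6a has close relatives nearby in Ly6c1, Ly6c2 and Ly6i, and how many reads they share was not measured here, so its counts are uncertain to that extent.

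RefSeq promoter windows (GRCm38.p6) were at hand for 3 of the 7 members, and the 250 bases before each start are shown because Ly6g6c, Lypd3 and Lypd5 were all low in basal-like cells and highest in upper layers. Capitals mark the letters TATAAA, known as a TATA box, in Ly6g6c and CACCC, the core of KLF sites, in the others, each searched on both strands.

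Ly6g6c, chr17:35067075-35067324, plus strand: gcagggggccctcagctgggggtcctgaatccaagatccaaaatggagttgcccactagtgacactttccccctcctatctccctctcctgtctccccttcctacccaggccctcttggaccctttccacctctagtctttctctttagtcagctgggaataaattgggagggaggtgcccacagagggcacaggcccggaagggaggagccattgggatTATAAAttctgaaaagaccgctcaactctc

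Lypd3, chr7:24636320-24636569, plus strand: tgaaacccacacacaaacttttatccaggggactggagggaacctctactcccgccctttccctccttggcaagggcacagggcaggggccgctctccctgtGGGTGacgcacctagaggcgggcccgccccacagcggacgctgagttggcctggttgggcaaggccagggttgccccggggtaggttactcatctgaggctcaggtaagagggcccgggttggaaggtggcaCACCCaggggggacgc

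Lypd5, chr7:24348946-24349195, plus strand: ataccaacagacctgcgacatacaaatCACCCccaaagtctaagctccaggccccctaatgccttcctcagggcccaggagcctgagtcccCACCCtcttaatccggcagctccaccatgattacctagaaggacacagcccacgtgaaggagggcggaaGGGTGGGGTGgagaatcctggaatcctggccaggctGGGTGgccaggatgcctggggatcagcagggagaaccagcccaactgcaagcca

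The 3 windows did not share a searched motif. Ly6g6c held TATAAA at position -30 from its RefSeq start, a sequence found in 12.4% of 32851 promoter windows of this length. Lypd5 held CACCC at 5 positions, 2 of them side by side, and Lypd3 at 2 positions, against 52% of all windows with at least 1. Neither TGANTCA (AP-1, 6.75% of windows) nor AACNNGTT (grainyhead, 3.64%) occurred in the 3 windows. The RefSeq starts of Ly6g6c and Lypd3 lie inside the longer spans that the GENCODE annotation gives these genes, so the TATAAA of Ly6g6c and the CACCC of Lypd3 at position -16 fall within the annotated genes.

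Ly6g6c rose steeply over the keratinocyte stages. In males the basal-like cells had 45.8, 60.3 and 76.2 CPM (lowest, median and highest of 6 libraries) and the Il34 cluster 478 ± 33.4 CPM (mean ± SD, n = 6). The Serpinb12 cluster had 1629, 1698 and 1909 CPM and the Dnase1l3 cluster 2649, 2845 and 3055 CPM. No library of one of these classes reached into the range of the next, so the ratio of the Dnase1l3 cluster to the basal-like cells within a library was 38.6 to 64.6, with a median of 46.8. Above that peak the level was lower again, at 821 ± 123 CPM in the terminally differentiated-like cells. Migratory-like cells, with 990 ± 116 CPM, overlapped the terminally differentiated-like cells. The male basal-like cells were a mixture, since the smaller of their 2 clusters had 288 ± 68.8 CPM and the larger 38.4 ± 8.54 CPM.

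Females had the same order of keratinocyte classes at the top with lower values. Ly6g6c was at 6.33 ± 0.968 CPM in basal-like cells, 86.9 ± 10.5 CPM in the Il34 cluster, 667 ± 55.5 CPM in the Serpinb12 cluster and 1391 ± 119 CPM in the Dnase1l3 cluster, all without overlap. The ratio of the Dnase1l3 cluster to basal-like cells was 190 to 291 (median 216). Terminally differentiated-like cells, at 105 ± 42.0 CPM, overlapped the Il34 cluster.

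Lypd3, a GPI-anchored member of suprabasal epidermis, followed the same order. In males it was at 147 ± 21.1 CPM in basal-like cells, 475 CPM in the Il34 cluster, 1151 CPM in the Serpinb12 cluster and 1676 ± 24.7 CPM in the Dnase1l3 cluster, then at 524 CPM in terminally differentiated-like cells (means, n = 6). The female means were 113, 440, 1055 and 1503 CPM in the first 4 of these classes, and 191 CPM in terminally differentiated-like cells. Class by class, the keratinocyte ranges of both sexes overlapped except in terminally differentiated-like cells, where males were higher.

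Lypd5 and Slurp1, the secreted member, were highest in the last stages. Lypd5 was at 2.32 CPM in male basal-like cells and 2.25 CPM in the Il34 cluster, at 67.2 CPM in the Serpinb12 cluster, and at 356 ± 33.4 CPM in the Dnase1l3 cluster and 453 ± 57.4 CPM in terminally differentiated-like cells. The ranges of the last 2 overlapped, but within a library the terminally differentiated-like cells were higher in 6 of 6 males, by 1.10 to 1.37 times. In females the order of the last 2 turned, with 664 ± 83.2 CPM in the Dnase1l3 cluster and 379 ± 57.2 CPM in terminally differentiated-like cells and no overlap. Lypd5 was itself among the leading genes of the female Dnase1l3 cluster. Slurp1 went from 29.8 CPM in male basal-like cells to 3130 ± 368 CPM in the Dnase1l3 cluster and 2878 ± 596 CPM in terminally differentiated-like cells, which overlapped. In females it was at 4.78 CPM in basal-like cells, 2574 ± 164 CPM in the Dnase1l3 cluster and 651 ± 164 CPM in terminally differentiated-like cells.

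Ly6d, a keratinocyte adhesion antigen, was present at every stage. Male basal-like cells had 4148 ± 175 CPM, and the Serpinb12 and Il34 clusters had 10541 ± 428 and 9849 ± 477 CPM and overlapped. The Dnase1l3 cluster (7849 ± 461 CPM) and the terminally differentiated-like cells (2167 ± 600 CPM) were lower. Female means were 3770 ± 245 CPM in basal-like cells, 12080 ± 481 CPM in the Serpinb12 cluster and 1770 ± 739 CPM in terminally differentiated-like cells. Its highest class was thus 2.51 times (males) and 3.23 times (females) the basal-like level, by the median over libraries.

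Ly6a, the stem cell antigen of blood progenitors, ran the other way. Its level in males was 290 ± 15.6 CPM in basal-like cells, 209 CPM in proliferating-like cells, 144 CPM in the Il34 cluster, 39.2 CPM in the Serpinb12 cluster and 15.2 CPM in the Dnase1l3 cluster. The first 3 of these did not overlap in males. In females the means were 247 ± 19.9, 148, 145, 41.1 and 15 CPM in the same order, and the proliferating-like cells and the Il34 cluster overlapped.

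Ly6e, a GPI-anchored member known from thymocytes and from its block of virus entry, was highest in the immune classes. T cell-like cells had 623, 819 and 1117 CPM in males (lowest, median and highest of 6) and 397 ± 38.4 CPM in females. Keratin-poor LC-like cells followed with 280 ± 41.4 CPM in males and 162 ± 16.9 CPM in females, without overlap with either neighbour in the order. Keratinocyte classes lay between 46.7 and 106 CPM in males and between 17.7 and 63.1 CPM in females, lowest in the Serpinb12 cluster in both sexes. The ratio of keratin-poor LC-like to basal-like cells was 2.67 in males and 3.14 in females (median over libraries).

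**Figure D1:**
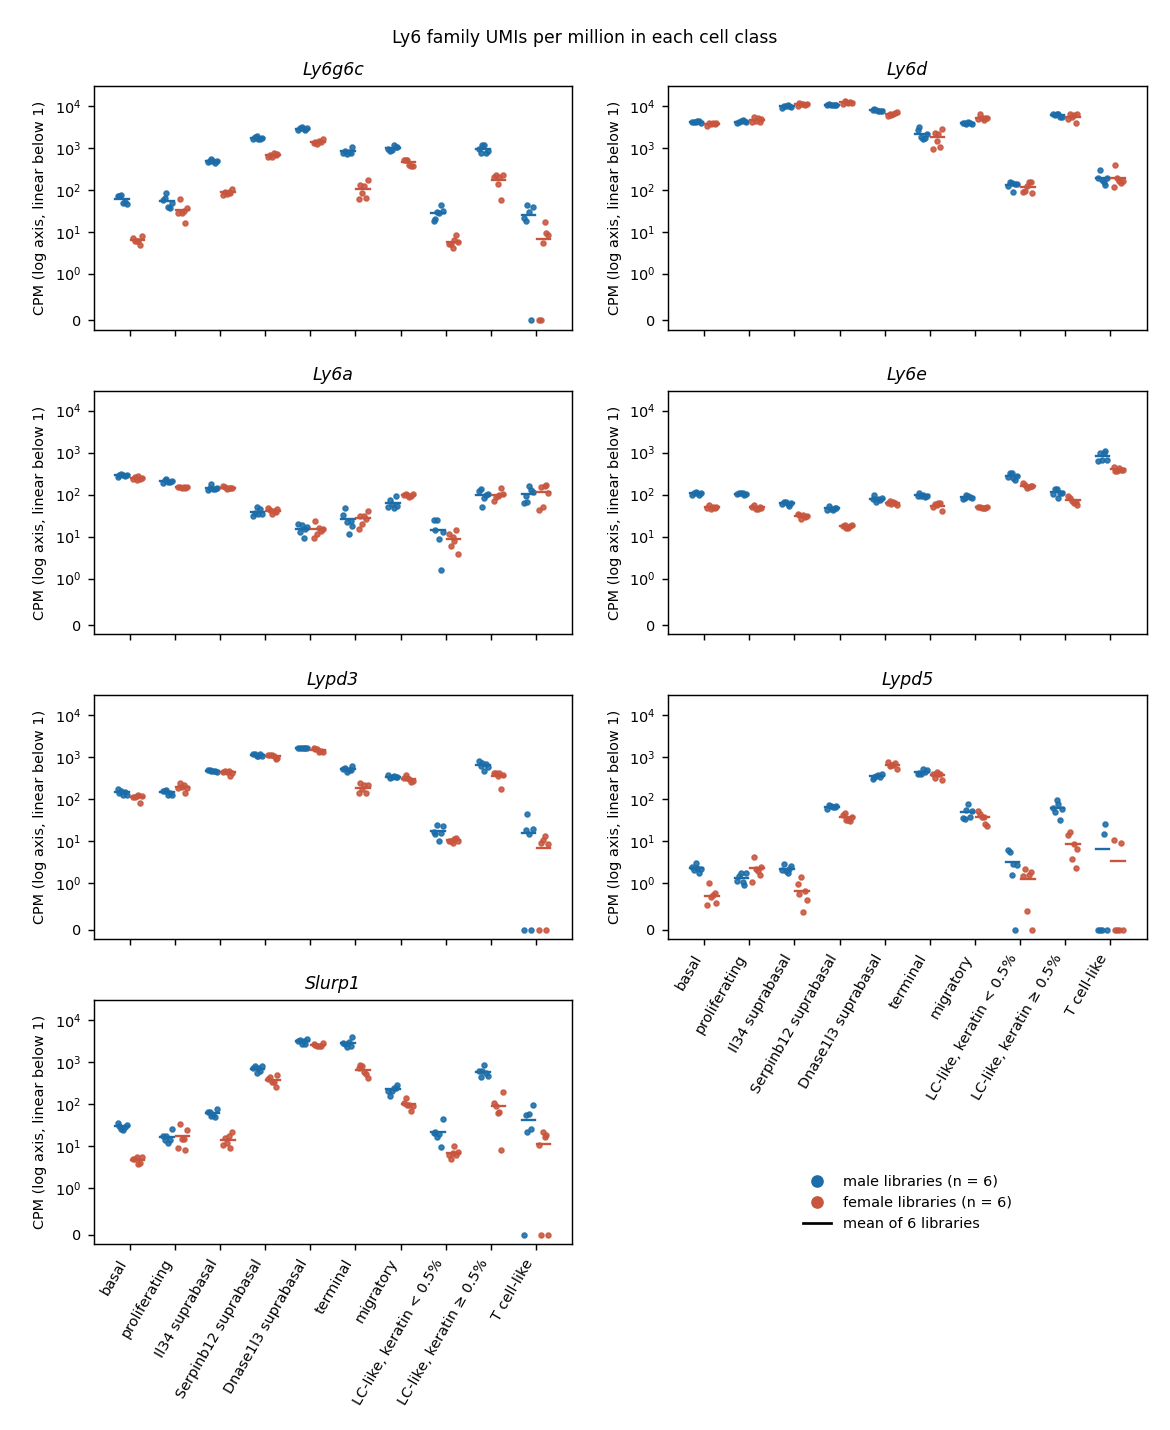
Level of each of the 7 members (CPM, log axis that is linear below 1) in 10 cell classes, with 1 point per library, males in blue, females in red and bars at the mean of 6 libraries. Ly6g6c, Lypd3, Lypd5 and Slurp1 are low in basal-like, keratin-poor LC-like and T cell-like cells and highest in the Dnase1l3 or terminally differentiated-like cells, Ly6a is highest in basal-like cells, and Ly6e is highest in T cell-like cells.

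The direction between suprabasal-like and basal-like cells was also read without the clusters. When keratinocytes were binned by the share of Krt1 and Krt10, the suprabasal keratins, among their Krt1, Krt10, Krt5 and Krt14 UMIs, the top bin stood on the same side of the bottom bin as suprabasal-like to basal-like cells for all 14 pairs of member and sex. The size of the ratio depended on the method. With all suprabasal-like clusters summed, the median ratio to basal-like cells in females was 76.2 for Ly6g6c, 87 for Lypd5 and 79.4 for Slurp1, and the bins gave 18.2, 28.9 and 45.2. In males it was 30.4 for Slurp1 and 6.89 for Lypd3, and the bins gave 45.8 and 10.7. The other 9 pairs moved by less than 1.5 times.

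Levels differed between the sexes for several members, and sex cannot be told apart from the counting software, since the file headers name Cell Ranger 6.1.0 for males and 7.2.0 for females. Over all keratinocytes the male mean was 3.40 times the female mean for Ly6g6c (921 against 271 CPM), 3.51 times for Slurp1, 2.09 times for Lypd5 and 2.07 times for Ly6e, with no overlap between the 6 male and 6 female libraries. These ratios pool classes whose shares differed by sex, since males had 3086 cells in the Dnase1l3 cluster and 3580 terminally differentiated-like cells, and females had 1291 and 1282. Within the Dnase1l3 cluster the ratio was 2.05 for Ly6g6c (no overlap), 1.22 for Slurp1 (overlap), 1.27 for Ly6e (overlap) and 0.536 for Lypd5, which was higher in females without overlap. The clusters differed in make-up by sex, since terminal markers there summed to 4710 to 8191 CPM in males and 13404 to 20318 CPM in females, and suprabasal markers to 74475 to 88323 and 67998 to 74225 CPM. In terminally differentiated-like cells it was 7.84 for Ly6g6c and 4.42 for Slurp1, both without overlap, and 1.19 for Lypd5, with overlap. Suprabasal markers in those cells summed to 39051 to 50430 CPM in males and 18736 to 21920 CPM in females, without overlap. The part of these markers in the ratios between the sexes was not tested. Over all keratinocytes the ratios for Ly6d and Ly6a were 0.908 and 1.03.

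Genes with the most similar levels were ranked by the lower of the male and female Pearson r over 54 class-by-library values per sex (log2 of CPM plus 1, 9703 genes), values that share libraries and are a description only. Ly6g6c stood nearest to Atp10b (r = 0.948 in males and 0.951 in females), Rnase1 and Tprg. Lypd3 stood nearest to the desmosomal genes Pkp1 (0.957 and 0.963) and Dsg1b, and to Slc6a8. The nearest genes of Ly6d were Lgals7 (0.986 and 0.984), Sfn and Dstn. Lypd5 was closest to Wfdc5 (0.962 and 0.959), with Slurp1 itself next (0.936 and 0.947) and then Cyp2b19, while Slurp1 was closest to Serpinb13 (0.949 and 0.960), Pglyrp4 and Sdr9c7. Ly6a, whose nearest genes were Ass1 (0.880 and 0.928), Kcnk1 and Npm3, had the lowest values. Ly6e was nearest to the leukocyte genes Spn (0.933 and 0.916), Samsn1 and Rnf125. Among the members, Ly6g6c and Lypd3 went together (0.911 and 0.857) and Ly6d and Ly6e ran opposite (-0.902 and -0.894).

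LC-like cells were divided at 0.5% of UMIs in Krt1, Krt10, Krt5 and Krt14, genes of keratinocytes. In males 304 of 1370 LC-like cells and in females 353 of 2174 lay above that line and are called keratin-rich. Below it, 14 male and 11 female cells lay from 0.25% to 0.5%, and above it 22 male and 91 female cells lay from 0.5% to 1%, so that many of the female keratin-rich cells were close to the line. Keratin-rich cells had a median of 13207 UMIs in males and 16791 in females, against 4076 and 6318 UMIs in keratin-poor cells. A doublet score gave the share of simulated sums of 2 cells among a cell's nearest neighbours. The highest scores of a library, 0.8% of its cells for each 1000 cells, fell on 78.6% of male and 84.1% of female keratin-rich cells, against 0.375% and 0.494% of keratin-poor cells.

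Ly6g6c was found almost wholly in the keratin-rich cells. In males they had 731, 872 and 1178 CPM (lowest, median and highest of 6 libraries), against 18.3, 28.6 and 43.6 CPM in keratin-poor cells. With high doublet scores removed, the mean of the male keratin-rich cells was 1380 CPM (SD 768) from 3 to 23 cells per library. Within a library, with all cells kept, the ratio was 17.3 to 50.1, with a median of 38.3. Female keratin-rich cells had 58.0, 201 and 226 CPM and keratin-poor cells 4.12, 5.46 and 8.45 CPM, a ratio of 6.86 to 44.5 with a median of 35.7. The groups did not overlap in either sex, and HFD replicate 2 was the lowest female library. Of the Ly6g6c UMIs in LC-like cells, 3985 of 4106 in males (97.1%) and 1118 of 1188 in females (94.1%) were in keratin-rich cells, which held a median of 51.7% and 34.0% of all UMIs of LC-like cells in a library.

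The other members of keratinocytes were also mostly in keratin-rich cells. Keratin-rich cells carried 98% of male and 96.1% of female Ly6d UMIs in LC-like cells, 97.6% and 95.0% of Lypd3, 96.4% and 86.1% of Slurp1, 94.7% and 78.3% of Lypd5 and 88.9% and 84.8% of Ly6a. Ly6e differed, with 30.6% and 19.1%. Keratinocyte genes outside the family had similarly high shares, at 96.7% and 94.2% for Lgals7, 97.4% and 95.8% for Krtdap, 96.9% and 93.7% for Dsp and 94.6% and 86.6% for Sbsn. Single libraries fell as low as 57.1% for Ly6a in males, and 33.3% for Lypd5 and 35% for Slurp1 in females, whereas Ly6g6c was at 94.2% to 98.6% in males and 73.5% to 97.3% in females. Ly6d was at 5958 ± 446 CPM in male keratin-rich cells and 130 ± 22.0 CPM in keratin-poor cells, while Ly6e was at 113 CPM in the former and 280 CPM in the latter.

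T cell-like cells, which should lack Ly6g6c, had 25.3 ± 15.7 CPM in males and 6.65 CPM in females, each from only 8 UMIs in all. Their ranges, 0 to 43.7 CPM in males and 0 to 16.8 CPM in females, covered those of the keratin-poor LC-like cells. With every cell thinned to 1000 UMIs, a Ly6g6c UMI was seen in 1.21% of male keratin-poor LC-like cells, 3.51% of T cell-like cells, 2.88% of basal-like cells, 32.4% of keratin-rich LC-like cells and 79.1% of the Serpinb12 cluster (medians of 6 libraries). The unthinned shares were 8.98%, 3.37%, 17.3%, 65.3% and 99.8%. In females the thinned shares were 0.261%, 0%, 0.478%, 12.5% and 44.4% in the same order. The thinned share in keratin-poor LC-like cells was thus below that of T cell-like cells in males and above it in females, and in both sexes below that of basal-like cells. A part for free RNA was not tested, and these shares are not read as expression by the cells themselves. Per library, the level in CPM of keratin-poor LC-like relative to basal-like cells was 0.259 to 0.870 in males and 0.673 to 1.75 in females. Cells under 1000 UMIs were left out, among them 39 of 192 male and 2 of 286 female T cell-like cells.

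Ly6g6c was next set against the keratin transcripts of the same cells. Per 100 UMIs of the 4 keratins, male libraries held 2.61 to 3.25 Ly6g6c UMIs in keratin-rich LC-like cells and 2.49 to 2.85 in keratinocytes, ranges that overlapped. The female ranges were 0.465 to 1.21 and 1.00 to 1.21, with HFD replicate 2 again the lowest. Ly6d gave medians of 18.1 and 19.7 in males and 31.8 and 32.9 in females. Ly6a medians were 0.333 and 0.363 in males and 0.518 and 0.540 in females. Lypd5 and Slurp1 were scarcer beside keratin in female keratin-rich LC-like cells, where Lypd5 was at 0.0186 to 0.0879 against 0.139 to 0.233 in keratinocytes, without overlap, and Slurp1 had a median of 0.434 against 0.947, with overlap. Male medians were 0.183 against 0.255 for Lypd5 and 1.78 against 2.12 for Slurp1, with overlap. Sbsn, a keratinocyte gene outside the family, was also scarcer without overlap, at 1.26 to 2.61 against 3.30 to 4.22 in females and 4.06 to 6.04 against 6.17 to 6.77 in males. Lgals7, Krtdap and Dsp overlapped in both sexes. Ly6e was at a median of 0.363 in male keratin-rich LC-like cells and 0.220 in keratinocytes. In male keratin-poor LC-like cells the medians were 37.8 for Ly6e and 1.63 for Ly6a. Ly6g6c in keratin-poor LC-like cells was at a median of 3.33 (2.31 to 7.09) in males and 1.36 (0.937 to 2.50) in females, against medians of 2.57 and 1.17 in keratinocytes, with overlap in both sexes.

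The kind of keratin in a keratin-rich LC-like cell went with its Ly6 genes. Cells in which Krt1 and Krt10 made up at least 0.8 of the 4 keratins (161 male and 144 female cells) had Ly6g6c at 1250 to 1426 CPM over the 6 male libraries. Cells in which that share was at most 0.2 (94 male and 148 female) had 10.3 to 28.2 CPM over the 4 male libraries with at least 3 such cells. In females the ranges were 171 to 466 CPM and 3.41 to 13.0 CPM. Pooled over males, the Krt1 and Krt10 cells against the Krt5 and Krt14 cells had Slurp1 at 885 and 15.1 CPM and Lypd3 at 1004 and 74.5 CPM. Ly6d was at 7565 and 2166 CPM, and Ly6a, the basal member, was reversed at 47.5 and 211 CPM. The order of each of these genes was that of suprabasal-like against basal-like keratinocytes. Female HFD replicate 2, the lowest library for Ly6g6c, also had the lowest share of Krt1 and Krt10 among the keratin UMIs of its keratin-rich LC-like cells, at 39.9% against 67.1% to 76.1% in the other 5. It was the lowest within the Krt1 and Krt10 cells as well (11 cells), with Ly6g6c at 171 CPM against 257 to 466 CPM in the other 5. Slurp1 there was at 27.0 against 122 to 366 CPM and Lypd3 at 351 against 585 to 758 CPM. The part of the kind of keratin in its low values was not tested.

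**Figure D2:**
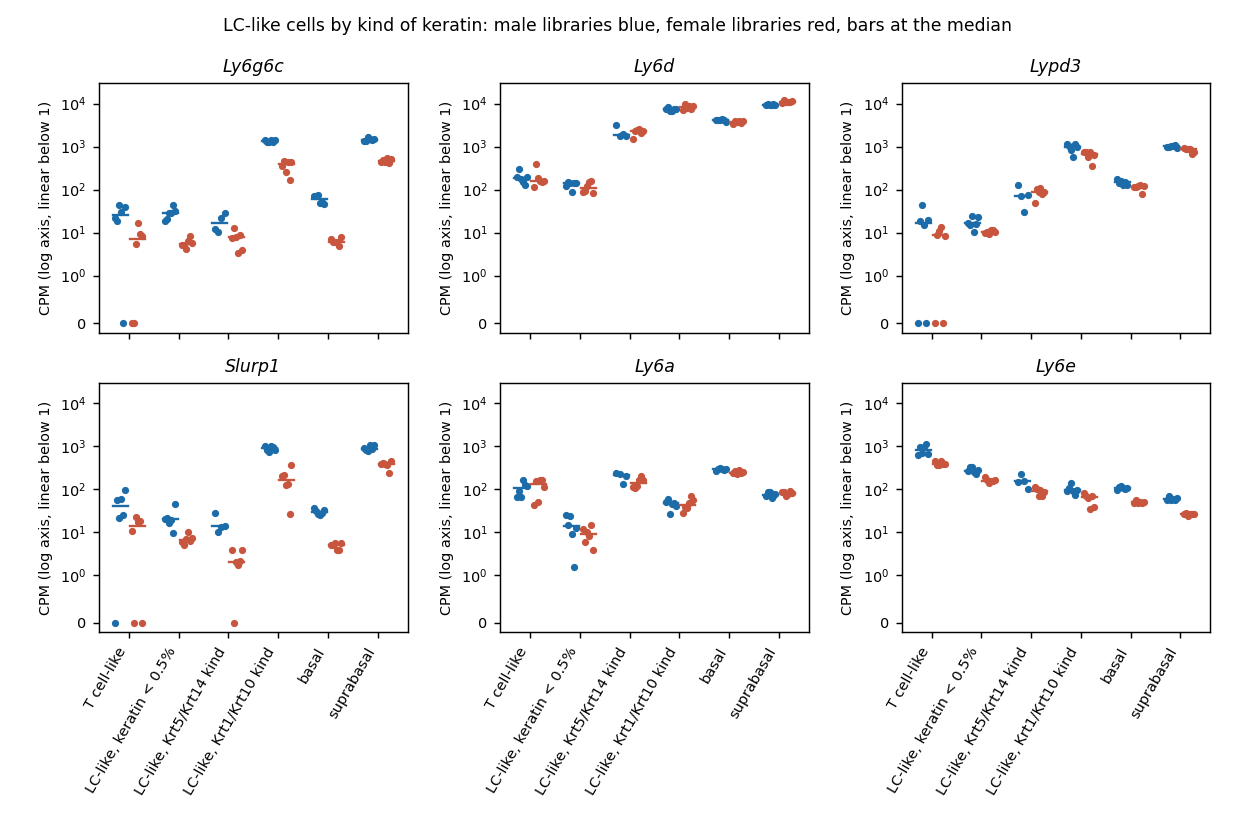
Level of 6 members (CPM, log axis that is linear below 1) in T cell-like cells, keratin-poor LC-like cells, keratin-rich LC-like cells dominated by Krt5 and Krt14 or by Krt1 and Krt10, and basal-like and suprabasal-like keratinocytes, with 1 point per library of at least 3 such cells, males in blue, females in red and bars at the median. Male Ly6g6c lies at 18.3 to 43.6 CPM in keratin-poor cells and at 1250 to 1426 CPM in keratin-rich cells dominated by Krt1 and Krt10, while Ly6e does not rise in that way.

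HFD was compared with RD in each class by edgeR's quasi-likelihood test on UMIs summed per library and class, with p adjusted (Benjamini-Hochberg) over all genes tested in the class and 0.05 as the threshold. In males 0 of 63 tests of a member in a class passed (12 had an unadjusted p under 0.05, and DESeq2 called 2), with 30 fold changes above and 33 below 0 and a median log2 fold change of -0.01. Among all genes, 0% passed in the male basal-like, proliferating-like, Il34, Serpinb12, Dnase1l3, terminally differentiated-like, migratory-like and keratin-rich LC-like classes, 0.0333% in keratin-poor LC-like cells and 0.137% in T cell-like cells. In the basal-like class 952 of 12758 genes had an unadjusted p under 0.05, and DESeq2 called 36 genes there.

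In females 1 of 64 tests of a member passed (12 had an unadjusted p under 0.05), 19 fold changes were above and 45 below 0, and their median was -0.05. The background share of genes that passed was 0.865% in basal-like cells, 1.55% in proliferating-like cells, 1.84% in the Il34 cluster, 4.45% in the Serpinb12 cluster and 0.0217% in the Dnase1l3 cluster. It was 0% in terminally differentiated-like cells, 0.287% in migratory-like cells, 0.791% in keratin-poor LC-like cells, 0% in keratin-rich LC-like cells and 0.279% in T cell-like cells. A single call among 64 tests lies within the span of these background shares. Genes with an unadjusted p under 0.05 were common too, from 602 of 8305 in keratin-rich LC-like cells to 3002 of 13430 in the Serpinb12 cluster, so the 12 of 64 member tests are not read as a result.

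The call was Ly6g6c in female migratory-like cells. RD libraries had 521, 516 and 508 CPM and HFD libraries 384, 372 and 376 CPM, without overlap. How many of all genes separate the diets likewise was not counted, here or in the diet comparisons below. The log2 fold change was -0.48 (SE 0.06, edgeR adjusted p = 0.0268). The call was lost in 5 of the 6 fits that left out 1 library (all but that without RD replicate 3), with an adjusted p of up to 0.109. Markers of the migratory class itself summed to 18531, 14466 and 15931 CPM in RD and 12110, 13799 and 11297 CPM in HFD in these cells, and suprabasal markers to 11954, 13247 and 11664 against 11151, 10298 and 10738 CPM. Basal markers lay the other way, at 11753, 10977 and 11385 CPM in RD and 12456, 12273 and 12125 CPM in HFD. The RD and HFD sums did not overlap for any of these 3 lists, and their part in the result was not tested.

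In male migratory-like cells the Ly6g6c values lay the other way, at 946, 854 and 895 CPM in RD and 1171, 1051 and 1026 CPM in HFD, without overlap (log2 fold change 0.31, SE 0.10, edgeR adjusted p = 0.623). Basal markers in these male cells summed to 13438, 15194 and 13996 CPM in RD and 11831, 11885 and 12380 CPM in HFD, without overlap and in the direction opposite to females, and their part in the result was not tested. Whether the diet effect differed by sex was asked with an interaction term, in which 1 of 55 tests of a member passed and 13 had an unadjusted p under 0.05. Among all genes the latter were 629 of 8512 in keratin-poor LC-like cells at the fewest and 2531 of 9892 in terminally differentiated-like cells at the most. That call was again Ly6g6c in migratory-like cells, with a log2 interaction (male change minus female change) of 0.76 (SE 0.12, edgeR adjusted p = 0.0162). All-gene shares past the threshold for the interaction were 0.0274% in basal-like cells, 0.0488% in proliferating-like cells, 0.0365% in the Il34 cluster, 0.315% in the Serpinb12 cluster, 0.0946% in the Dnase1l3 cluster, 0.208% in migratory-like cells and 0% in terminally differentiated-like and keratin-poor LC-like cells. The Ly6g6c interaction was lost when cells with up to 10% mitochondrial UMIs were kept and clustered again (0.48, adjusted p = 0.289). Male migratory-like cells then came from clusters of 4466 and 360 cells, against 2935 cells before, and the part of this change was not tested. The interaction was also lost without female RD replicate 1 (adjusted p = 0.0564) and without female HFD replicate 3 (adjusted p = 0.0536). Counting software differed between the sexes but not between the diets of a sex.

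Ly6g6c in male basal-like cells had 70.5, 71.1 and 76.2 CPM in RD and 49.5, 50.1 and 45.8 CPM in HFD. All HFD libraries were below all RD libraries, but the log2 fold change of -0.53 (SE 0.07) did not pass after adjustment (edgeR adjusted p = 0.0655), and it did pass without male RD replicate 2 (adjusted p = 0.0114). Male proliferating-like cells gave 58.2, 64.5 and 81.9 CPM in RD and 37.9, 37.3 and 47.3 CPM in HFD (log2 fold change -0.71, SE 0.12, edgeR adjusted p = 0.133). Those groups did not overlap either, and the test passed without male RD replicate 2 (-0.74, edgeR adjusted p = 0.0141). DESeq2 called Ly6g6c in both classes, with an adjusted p of 0.000129 in basal-like and 0.000128 in proliferating-like cells. It called 36 of all 12758 genes in the former and 32 of 12025 in the latter. In male proliferating-like cells terminal markers summed to 325, 300 and 355 CPM in RD and 362, 440 and 510 CPM in HFD, without overlap, while suprabasal markers overlapped at 9648, 10479 and 10978 against 9303, 8557 and 9900 CPM, and their part in the result was not tested. Suprabasal markers in male basal-like cells summed to 9020, 8052 and 8560 CPM in RD and 7400, 7570 and 7038 CPM in HFD, and their part in the result was not tested. The smaller basal-like cluster, in which Ly6g6c was higher, made up 9.48%, 10.2% and 9.72% of male basal-like cells in RD and 7.24%, 9.44% and 8.54% in HFD. In female basal-like cells the values overlapped, at 6.95, 6.16 and 6.12 CPM in RD and 6.17, 4.83 and 7.73 CPM in HFD.

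**Figure D3:**
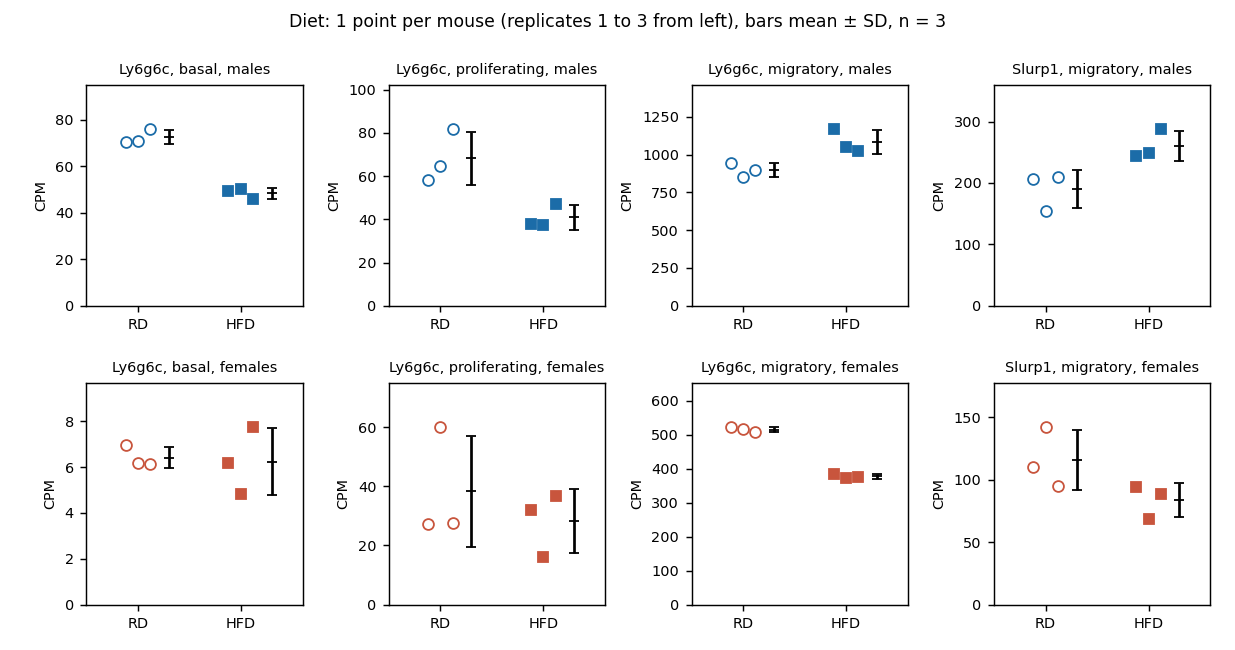
Level (CPM) of Ly6g6c in basal-like, proliferating-like and migratory-like cells and of Slurp1 in migratory-like cells by diet, males in the top row and females in the bottom row, with 1 point per mouse and the mean and SD of 3 mice in black. Ly6g6c on HFD lies below RD in male basal-like and proliferating-like cells and in female migratory-like cells, and above RD in male migratory-like cells.

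Keratin-poor LC-like cells of males had Ly6g6c at 18.3, 20.2 and 29.1 CPM in RD and 28.1, 43.6 and 31.9 CPM in HFD. The groups overlapped and the log2 fold change of 0.62 did not pass (edgeR adjusted p = 0.561).

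Slurp1 lay in the same directions as Ly6g6c in migratory-like cells, short of the threshold in edgeR with the filter on low counts. Male values were 207, 154 and 210 CPM in RD and 244, 249 and 288 CPM in HFD (log2 fold change 0.49, SE 0.12, edgeR adjusted p = 0.428). The male direction turned to -0.17 when cells with up to 10% mitochondrial UMIs were kept and clustered again, which changed the migratory-like class. Without the filter on low counts, edgeR called Slurp1 in migratory-like cells in males (adjusted p = 0.0109), in females (0.00360) and in the interaction (7.1e-07). The fold changes hardly moved while the SE fell, as in the interaction from 0.96 (SE 0.23) to 0.97 (SE 0.15). How many of all genes edgeR called without the filter was not counted. In female terminally differentiated-like cells Slurp1 was at 718, 848 and 799 CPM in RD and 589, 520 and 433 CPM in HFD, without overlap (log2 fold change -0.82, adjusted p = 0.462). Its interaction in that class was 1.45 (SE 0.35, adjusted p = 0.0698), and it passed without female RD replicate 2 (1.58, adjusted p = 0.0198), in DESeq2 (1.55, adjusted p = 0.00137) and in edgeR without the filter on low counts (1.49, adjusted p = 0.00425). DESeq2 called 744 of all 9892 genes for the interaction in that class.

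Lypd5 and Lypd3 lay lower on HFD in several female classes, short of the threshold in edgeR with all libraries and the filter on low counts. Lypd5 in migratory-like cells was at 54.3, 46.1 and 38.3 CPM in RD and 37.9, 26.1 and 22.6 CPM in HFD (log2 fold change -0.69, edgeR adjusted p = 0.138). Lypd3 was at 1131, 1144 and 1118 CPM in RD and 1069, 911 and 955 CPM in HFD in the Serpinb12 cluster (-0.24, adjusted p = 0.104). In the Dnase1l3 cluster it was at 1718, 1584 and 1574 against 1376, 1412 and 1350 CPM (-0.28, adjusted p = 0.267). The groups did not overlap in these 3 cases, though for Lypd5 only by 38.3 against 37.9 CPM, and how many of all genes separate likewise was not counted. Among all genes an unadjusted p under 0.05 was common, in 1862 of 12885 in migratory-like cells, 3002 of 13430 in the Serpinb12 cluster and 1123 of 9223 in the Dnase1l3 cluster. DESeq2 called Lypd5 in migratory-like cells (adjusted p = 0.0160) and Lypd3 in the Serpinb12 cluster (adjusted p = 0.0486). It called 169 of all 12885 genes in the former class and 773 of 13430 in the latter. In edgeR, Lypd3 in the Serpinb12 cluster passed without female HFD replicate 1 (-0.33, adjusted p = 0.0404), and Lypd5 in migratory-like cells passed without the filter on low counts (adjusted p = 0.000197).

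Ly6a in male terminally differentiated-like cells had a log2 fold change of -0.66 (edgeR adjusted p = 0.104). It passed in edgeR without male RD replicate 3 (-0.77, adjusted p = 0.0455) and, with all libraries, without the filter on low counts (-0.64, adjusted p = 0.018). Basal markers in those cells summed to 2592, 3460 and 1857 CPM in RD and 763, 1755 and 1573 CPM in HFD, and proliferating markers to 156, 223 and 145 CPM in RD and 55.7, 119 and 88.3 CPM in HFD, both without overlap, and their part in this and the other results of that class was not tested. In male keratin-poor LC-like cells the Ly6a value of -1.41 rested on 1 to 20 UMIs per library. Ly6a was on the other side of 0 in female keratin-rich LC-like cells (0.42, SE 0.17) and in female T cell-like cells (0.90, SE 0.41), and Ly6e was below 0 in male keratin-poor (-0.31, SE 0.13) and female keratin-rich LC-like cells (-0.39, SE 0.16). None of these 4 passed after adjustment (edgeR, adjusted p between 0.522 and 0.673).

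Of the remaining tests with an unadjusted p under 0.05, those in male terminally differentiated-like cells were above 0, with log2 fold changes of 0.56 for Lypd5 (SE 0.20), 0.54 for Slurp1 (SE 0.24) and 0.44 for Ly6g6c (SE 0.20) and edgeR adjusted p values of 0.124, 0.182 and 0.180. In that class 2519 of 9589 genes had an unadjusted p under 0.05. The basal and proliferating marker sums given for Ly6a there were lower on HFD. Lypd3 was below 0 in male proliferating-like cells (-0.25, SE 0.08) and female migratory-like cells (-0.33, SE 0.11), as was Slurp1 in the latter (-0.49, SE 0.16). Lypd5 was below 0 in the female Serpinb12 cluster (-0.31, SE 0.13) and in the female Il34 cluster (-0.79, SE 0.34), where its level was under 1 CPM on average and its direction turned under another clustering resolution. Without the filter on low counts, edgeR called Lypd3 in female migratory-like cells (adjusted p = 0.0327) and Lypd5 in the female Serpinb12 cluster (0.0404). The interaction was above 0 in migratory-like cells for Lypd5 (1.16, SE 0.35), Slurp1 (0.96, SE 0.23) and Lypd3 (0.34, SE 0.16) too, with edgeR adjusted p values of 0.208, 0.138 and 0.442. Lypd5 and Lypd3 also lay above 0 in the Dnase1l3 cluster (0.35 and 0.32) and in terminally differentiated-like cells (0.95 and 0.58), as did Lypd5 in the Serpinb12 cluster (0.38). Interactions below 0 were those of Ly6a in terminally differentiated-like cells (-0.94) and keratin-poor LC-like cells (-1.40) and of Ly6g6c in basal-like cells (-0.50). None of these passed in edgeR with all libraries and the filter on low counts (adjusted p of at least 0.102). Without that filter, edgeR called Lypd5 (1.17, adjusted p = 6.8e-07) and Slurp1 (7.1e-07) in migratory-like cells. For Lypd5 the SE was then 0.18, against 0.35 with the filter. In terminally differentiated-like cells Lypd5 (adjusted p = 0.0315) and Ly6a (0.0441) passed without female RD replicate 2, and DESeq2 called Slurp1 in migratory-like cells (0.00881), Lypd3 in the Dnase1l3 cluster (0.0235) and Lypd3 in terminally differentiated-like cells (0.0319). Among all genes DESeq2 called 82 of 12974, 81 of 10573 and 744 of 9892 for the interaction in these classes, in the same order.

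**Figure D4:**
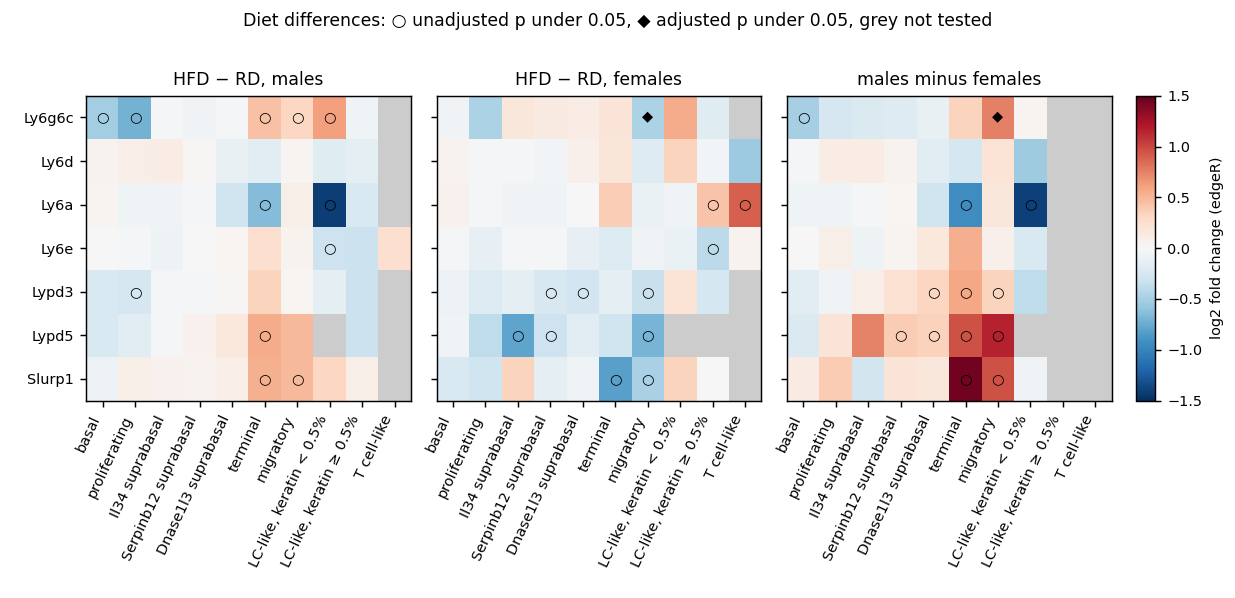
Log2 fold change of each member in each class, HFD minus RD, for males (left) and females (middle), and the interaction, males minus females (right), as a colour scale centred on 0, with circles for an unadjusted p under 0.05, diamonds for an adjusted p under 0.05 and grey for pairs not tested. The diamonds are Ly6g6c in migratory-like cells in females and in the interaction.

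Of 31 other genes of the LU domain family, 8 reached 10 CPM in a class in both sexes and 14 stayed under 1 CPM in every class. Slurp2, a secreted relative of Slurp1, was highest in the Dnase1l3 cluster (1738 CPM in males and 1262 CPM in females), and Ly6m in terminally differentiated-like cells (1327 and 606 CPM). Plaur, the urokinase receptor, was highest in keratin-poor LC-like cells (154 and 836 CPM). Ly6g6e, a neighbour of Ly6g6c on chromosome 17, had 92.5 and 63.6 CPM in the Serpinb12 cluster. Between the diets, 2 of 88 female tests of these genes and 0 of 89 male tests passed in edgeR (12 in each sex had an unadjusted p under 0.05, and DESeq2 called 4 and 1). The calls were both higher on HFD in the female Serpinb12 cluster, Plaur (log2 fold change 1.00, SE 0.22, edgeR adjusted p = 0.0328) and Lynx1, a GPI-anchored brake on nicotinic receptors (0.52, SE 0.10, adjusted p = 0.0264), in the class where 4.45% of all genes passed. Both were scarce in that cluster, with female means of 4.20 CPM for Plaur and 6.97 CPM for Lynx1. The median log2 fold change over the list was 0.04 in females and -0.04 in males.

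Nicotinic receptor subunits, the partners of the SLURP proteins, were scarce in these cells. None of 13 reached 10 CPM in any class in both sexes and 9 stayed under 1 CPM everywhere. Chrna3 was at 3.27 CPM in the female Dnase1l3 cluster (1.55 to 4.76 over 6 libraries) and Chrnb1 at 3.07 CPM in female keratin-poor LC-like cells (1.45 to 4.50). Chrnb1 had its highest mean, 3.64 CPM, in male T cell-like cells, where it ranged from 0 to 21.8 CPM, and 0 of 9 female and 0 of 4 male tests passed in edgeR (1 and 0 had an unadjusted p under 0.05, and DESeq2 called 0). All 5 subunits of the GPI transamidase, which attaches the anchor, reached 10 CPM, and 0 of 44 female and 0 of 42 male tests passed in edgeR (2 and 3 had an unadjusted p under 0.05, and DESeq2 called 0).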

How the data were processed

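Each library was deposited as a matrix of whole-number counts, UMIs per gene and cell, which the authors made with Cell Ranger. The submitters' processing notes name Cell Ranger 7.2.0 and Seurat 5.0.0, while the file headers give Cell Ranger 6.1.0 for males and 7.2.0 for females. Whether counting used strand is not given in the sources used here. Following the study's filters, cells under 200 (males) or 500 (females) genes, over 6000 genes or over 5% mitochondrial UMIs were dropped. Clusters were found within each sex (scikit-learn 1.9.0, leidenalg 0.10.2), with the members left out, and named from marker lists, so classes can differ from those of the study. No doublet was removed, and a doublet score against simulated sums was an alternative.

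UMIs were summed per library and class and tested with edgeR 4.0.16 (TMM, filterByExpr, quasi-likelihood) in R 4.3.3. DESeq2 1.42.0, no filter, other thresholds and leaving out each library were alternatives, as was pooling the suprabasal clusters, chosen after seeing the data. How many of all genes passed without the filter was not counted, so member calls under it lack a background share. Levels over classes and the division of LC-like cells are descriptions without tests. p-values measure the spread between mice. The members and lists were chosen with earlier results of these data known. Named were all members by level, members with an unadjusted p under 0.05 in a class by fold change, the 3 most similar genes of each, and from each list up to 4 genes by highest level and those called. The fits were tested on simulated data.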

Additional observations from a re-analysis of the deposited data

Results flagged for a closer look

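The difference between the sexes in the diet effect on Ly6g6c in migratory-like cells was picked out because the test of the difference itself passed: the log2 interaction was 0.76 (male change minus female change, SE 0.12, edgeR adjusted p = 0.0162). Each male HFD library was above each male RD library, and each female HFD library was below each female RD library. How many of all genes separate likewise in this class was not counted. The male change alone did not pass. All 7 members had an interaction above 0 in this class, with all 7 male changes above 0 and all 7 female changes below 0. Several of these changes were smaller than their SE, such as Ly6d (0.04, SE 0.10) and Lypd3 (0.03, SE 0.10) in males and Ly6e (-0.05, SE 0.08) in females. The levels of some members also went together, as those of Lypd5 and Slurp1 did. How many of all genes share these signs was not counted. Only Ly6g6c passed in edgeR with all libraries and the filter on low counts. DESeq2 also called Slurp1 (adjusted p = 0.00881), and edgeR without that filter also called Slurp1 (7.1e-07) and Lypd5 (6.8e-07). For this interaction DESeq2 called 82 of all 12974 genes, and how many edgeR called without the filter was not counted. Migratory-class markers in the same cells summed to 24321, 27710 and 15372 CPM in male RD and 30997, 29740 and 25717 CPM in male HFD, and to 18531, 14466 and 15931 CPM in female RD and 12110, 13799 and 11297 CPM in female HFD. Basal markers summed to 13438, 15194 and 13996 CPM in male RD and 11831, 11885 and 12380 CPM in male HFD, and to 11753, 10977 and 11385 CPM in female RD and 12456, 12273 and 12125 CPM in female HFD. The basal sums did not overlap between diets in either sex and lay in opposite directions in the sexes. The part of both lists in the result was not tested.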

How the results depend on the processing

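The alternatives gave 584 values for 37 results, each a member in a class in males, in females or in the interaction. Of these values 545 kept their direction and side of the threshold, 9 lost and 28 gained a call, and 2 reversed. The values kept include repeats of the main fit, since pooling the suprabasal clusters as 1 class does not change the other classes. The reversed values were Slurp1 in male migratory-like cells (-0.17 with up to 10% mitochondrial UMIs, where cells were clustered again) and Lypd5 in the female Il34 cluster (0.15 at resolution 0.6). In males, 0 member tests called became 4 without the filter on low counts, 2 with a replicate block, 2 with DESeq2 and 0 to 2 without 1 replicate (2 without RD replicate 2, 1 without RD replicate 3). In females, 1 became 5 without the filter, 0 with the replicate block, 3 with DESeq2 and 0 to 1 without 1 replicate (0 without RD replicate 1, RD replicate 2 or HFD replicate 3). The call was Ly6g6c in migratory-like cells without RD replicate 3, but Lypd3 in the Serpinb12 cluster without HFD replicate 1. Without HFD replicate 2 it was Slurp1 in the Il34 cluster (0.64, edgeR adjusted p = 0.0385). For the interaction, 1 became 4 without the filter, 0 with up to 10% mitochondrial UMIs, 5 with DESeq2, 2 with the suprabasal clusters as 1 class (chosen after seeing the data) and 0 to 4 without 1 replicate (0 without female RD replicate 1 or female HFD replicate 3, 4 without female RD replicate 2). The cause was not tested. Among all genes DESeq2 called 773 of 13430 in the female Serpinb12 cluster and 169 of 12885 in female migratory-like cells. For the interaction it called 744 of 9892 in terminally differentiated-like cells, 82 of 12974 in migratory-like cells and 81 of 10573 in the Dnase1l3 cluster. The number of all genes called without the filter was not counted. The block used replicate numbers, which the labels do not describe as a pairing. Over the keratinocyte classes, the deviations of male RD and HFD replicate 2 correlated at 0.0317 to 0.261. Those of male replicates 1 and 3 were at -0.0791 to 0.0424 and -0.161 to 0.0987, and those of female replicate 1 at -0.123 to -0.0285. Pairs of unlike number reached similar or higher values. Female RD replicate 1 and HFD replicate 2 were at 0.0741 to 0.313 over the classes. In terminally differentiated-like cells male RD replicate 3 and HFD replicate 1 were at 0.334, and female RD replicate 2 and HFD replicate 3 at 0.385. Whether the numbers mark a shared batch was not tested. With the block, Ly6g6c passed in male basal-like (edgeR adjusted p = 0.0430) and proliferating-like cells (0.00485), failed in female migratory-like cells (0.0828), and the interaction passed (0.0219).

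Over all its alternatives, Ly6g6c ranged from -0.54 to -0.44 in female migratory-like cells (8 of 14 passed), from 0.48 to 0.84 in the interaction (17 of 20), from -0.62 to -0.43 in male basal-like cells (4 of 14) and from -0.84 to -0.59 in male proliferating-like cells (4 of 14). These counts include the suprabasal clusters as 1 class, which left these classes unchanged and so repeated the main fit, with a pass for female migratory-like cells and the interaction. Ly6g6c in male keratin-rich LC-like cells became 1380 CPM (SD 768) with high doublet scores removed. Of 14 level ratios read from bins of the Krt1 and Krt10 share instead of clusters, 6 moved by less than the spread between libraries, 8 moved by more and 0 reversed. Without 1 replicate, the mean of Ly6g6c was 879 to 968 CPM in male keratin-rich LC-like cells and 25.5 to 30.6 CPM in keratin-poor cells, and 164 to 198 and 5.30 to 6.16 CPM in females. T cell-like cells held few UMIs, so only Ly6e could be tested there in males.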
